A study of Mus musculus with 12 samples.

Results

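Ccl19-high fibroblasts of the mouse lymph node are described here: 589 cells among 7955 fibroblasts and 45341 cells in 6 single-cell RNA libraries, of 95358 cells in all 12 libraries of the study. A barcode was kept as a cell with 1000 or more UMIs (molecular tags that each mark 1 captured RNA molecule), 500 or more genes detected, and no more than 10% of its UMIs mitochondrial. It was taken as a fibroblast with at least 5 UMIs of the matrix genes Col1a2, Col3a1 and Dcn together and 0 UMIs of the leukocyte genes Ptprc, Cd79a and Cd3e and of the endothelial genes Pecam1 and Cdh5. It was Ccl19-high with at least 3 UMIs of Ccl19 and at most 2 UMIs of the mural genes Rgs5, Notch3 and Abcc9 together. These 12 genes chose the cells, so their levels are given as descriptions and not as findings.

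Fibroblastic reticular cells build the scaffold of the lymph node. In the T cell zone they secrete the chemokines CCL19 and CCL21, which draw T cells and dendritic cells through the receptor CCR7, and the cytokine IL-7, which keeps naive T cells alive. They wrap collagen conduits, carry podoplanin (Pdpn), a surface protein that sets their contractility, and loosen and multiply when the node swells. Related reticular cells around vessels and in the medulla make CXCL12, and those of the follicles and the outer margin make CXCL13.

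Each group was 1 library. All mice were C57BL/6, aged 7 to 10 weeks, carried ATG12 fl/fl alleles and received tamoxifen 5 times. They were labelled positive or negative for CDH5 CreER, a tamoxifen-inducible recombinase driven by the endothelial gene Cdh5, so the fibroblasts are not the cells in which the Cre is meant to act. Within each label, mice received the solvent of acetone and olive oil alone (vehicle) or 4% oxazolone, a contact sensitiser, on the skin of the abdomen, with nodes taken at day 3 or day 7. The 6 libraries used were labelled CD45: cells freed from the nodes by enzymes were selected for CD45 with microbeads and then flow sorted, so these fibroblasts, which by the rule have 0 UMIs of the CD45 gene Ptprc, were in a fraction named for leukocytes. Nothing in the labels says how many animals a library pools or that the libraries came from separate animals, so p-values measure the spread between these libraries only. Pairs of values below name the library labelled Cre-negative first and the one labelled Cre-positive second.

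The 6 libraries held 36724887 to 70160214 UMIs and 5984 to 8719 cells. There were 78 and 112 Ccl19-high fibroblasts at vehicle, 122 and 47 at day 3, and 146 and 84 at day 7, with 389011 to 1099454 UMIs summed over them per library. Free RNA, read from barcodes with at most 100 UMIs, was estimated at 0.402% to 1.62% of their UMIs, and 0.620% to 2.32% of lymphocytes had 3 or more Ccl19 UMIs. Any pair of the 12 libraries shared 7 to 31 cell barcodes, at most 0.380% of cells, and no barcode was a Ccl19-high fibroblast in more than 1 library. Among the Ccl19-high fibroblasts, 5 of the 6 libraries held both cells with Xist UMIs and cells with Y-linked UMIs, and the vehicle library labelled Cre-positive held 0 with Xist. Cells with Xist UMIs numbered 18 and 0 at vehicle, 76 and 10 at day 3, and 62 and 21 at day 7. Those with Y-linked UMIs numbered 29 and 72, 20 and 20, and 44 and 21. This mix thus differed between vehicle and day 3. Cells with Xist UMIs were also a smaller part of the cells under the Cre-positive label at each time. The part of this mix in the differences below, by treatment or by label, was not tested. Summed markers of T cells reached at most 14.6 CPM (UMIs scaled to a common library total of 1000000), those of B cells 20.4, those of myeloid cells 15.5 and those of lymphatic endothelium 3.99. The rule set Ptprc, and Cd3e and Cd79a of the T and B cell lists, to 0. These low sums, and the free RNA estimate from other T and B cell genes, thus follow partly from the rule. Markers of blood endothelium reached 598 CPM, mostly Glycam1, those of epithelium and fat 57.3 and those of erythroid cells and platelets 30.8. Marginal reticular markers summed to 1633 to 2971 CPM and follicular dendritic cell markers to 876 to 2532, with Cxcl13 in both lists.

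UMIs of the other T-zone markers were found in part of these cells. Over the 589 cells, 282 (47.9%) had a UMI of Ccl21a and 201 (34.1%) a UMI of Il7, while 240 (40.7%) had neither. In lymphocytes, which should lack both genes, 2.46% to 9.64% of cells per library had a Ccl21a UMI and 0.545% to 1.86% an Il7 UMI, at median depths of 3221 to 5297 UMIs per cell. At the depth of the Ccl19-high cells, a cell without a UMI of either gene is not shown to lack its RNA. Ccl21a is nearly identical in sequence to other Ccl21 copies, so its counts are uncertain as counts of that gene alone. Pdpn averaged 135 CPM in them over the 6 libraries against 163 in the 2143 other non-mural fibroblasts, so it did not mark them. They are therefore called Ccl19-high fibroblasts, after the rule.

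The number of Ccl19 UMIs in a cell went with Ccl21a and Il7. In the 327 cells with 3 to 9 Ccl19 UMIs, Ccl21a stood at 1213 CPM and Il7 at 50.0 CPM. In the 262 cells with 10 or more, Ccl21a stood at 9110 CPM and Il7 at 158 CPM. Just inside the threshold, the 103 cells with 3 Ccl19 UMIs had 437 CPM of Ccl21a and 24.9 CPM of Il7. Just outside it, the 157 cells with 2 UMIs had 142 and 17.1 CPM. Library by library, Ccl21a was higher at 3 than at 2 Ccl19 UMIs in 3 of 6 libraries and Il7 in 5 of 6, so the step in Ccl21a at the threshold was not common to the libraries. The 1667 cells with no Ccl19 UMI had 15.6 and 6.26 CPM. Cd34 and Pi16, which mark adventitial fibroblasts, ran the other way, from 780 and 1036 CPM in the cells without Ccl19 to 259 and 8.79 CPM in those with 3 UMIs. These values are sums over cells of all 6 libraries, and deeper cells reach a UMI threshold more easily.

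**Figure D1:**
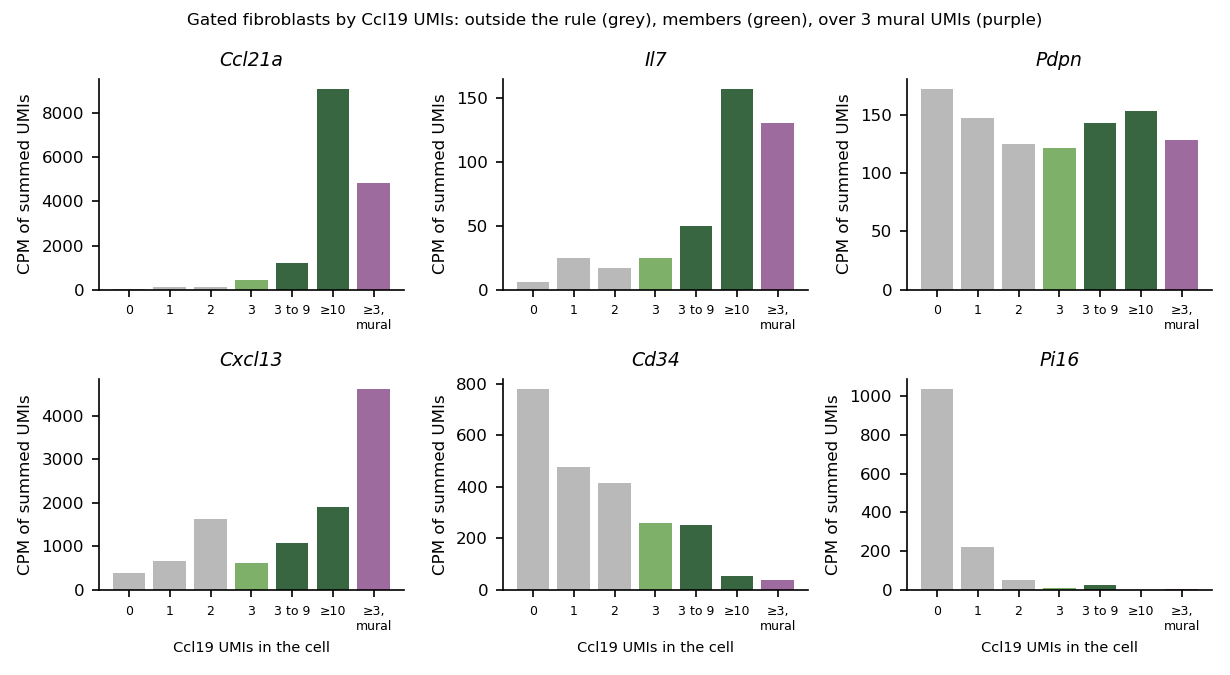
CPM of 6 genes (vertical axes, from 0) in gated fibroblasts grouped by their Ccl19 UMIs (horizontal axes), summed over the 6 libraries: grey bars are cells outside the rule, green bars Ccl19-high fibroblasts (the bar at 3 is part of the bar at 3 to 9) and purple bars cells with at least 3 Ccl19 UMIs and over 3 mural UMIs. Ccl21a reached 9110 CPM and Il7 158 CPM at 10 or more Ccl19 UMIs, while Pdpn varied little across the groups and Cd34 and Pi16 were highest without Ccl19.

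The limit on mural genes left most Ccl19-bearing fibroblasts outside. A further 3992 gated fibroblasts had at least 3 Ccl19 UMIs and over 2 mural UMIs, so the cells described here were 20.6% and 14.8% of all Ccl19-bearing fibroblasts at vehicle, 11.9% and 6.12% at day 3, and 22% and 8.50% at day 7. The 229 cells just inside that limit, with 2 mural UMIs, had 5458 CPM of Ccl21a, and the 260 just outside, with 3, had 6238 CPM. The cells outside the limit were close to those inside in mean Ccl21a (5597 against 5164 CPM), Il7 (142 against 110 CPM) and Des, which encodes the filament protein desmin (646 against 537 CPM). They differed more in Cxcl13, at 3649 against 1373 CPM. No test was made, since the rule drew this line. Inside it, the 164 cells with 0 mural UMIs had 2537 CPM of Ccl21a, 50.4 CPM of Il7 and 329 CPM of Des. The 196 cells with 1 mural UMI had 6796, 117 and 624 CPM. Cells with 0 mural UMIs were 16 of 78 and 24 of 112 at vehicle. They were 51 of 122 and 21 of 47 at day 3, a larger part, and 33 of 146 and 19 of 84 at day 7. The part of this in the day 3 differences below was not tested.

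Against the 2143 non-mural fibroblasts with under 3 Ccl19 UMIs, the largest ratios in the library where each was smallest belonged to Stmn2, Ccl19, Ccl21a, Bst1, Dsc3, Serpina10, Clu, Serpina3g, Csf2rb2, Csf2rb, Des, Aqp1, Gm16685 and Hdac9. A count under 3 in either set was taken as 3 for these ratios, and Glycam1, which ranked among them by that floor, is left out because the Ccl19-high fibroblasts had 0 and 1 UMIs of it in 2 libraries. Ccl21a was higher by 5.35 to 8.94 on the log2 scale, and Bst1, an ectoenzyme of reticular and stromal cells, by 4.04 to 7.00. Stmn2, which encodes a microtubule-binding protein known from neurons, averaged 278 CPM against 2.42 CPM. Clu, which encodes the chaperone clusterin, averaged 2746 against 168 CPM, and Csf2rb, the shared beta chain of the receptors for IL-3, IL-5 and GM-CSF, 386 against 50.0 CPM. The Ccl19-bearing fibroblasts with over 2 mural UMIs, which the rule left out, held these genes too, at 214 CPM of Stmn2, 144 CPM of Bst1, 3171 CPM of Clu and 539 CPM of Csf2rb. Lower in the Ccl19-high cells were Dpp4 (4.51 against 270 CPM) and Pi16 (12.0 against 865 CPM). The rule chose on these same cells, so these ratios have no test.

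**Figure D2:**
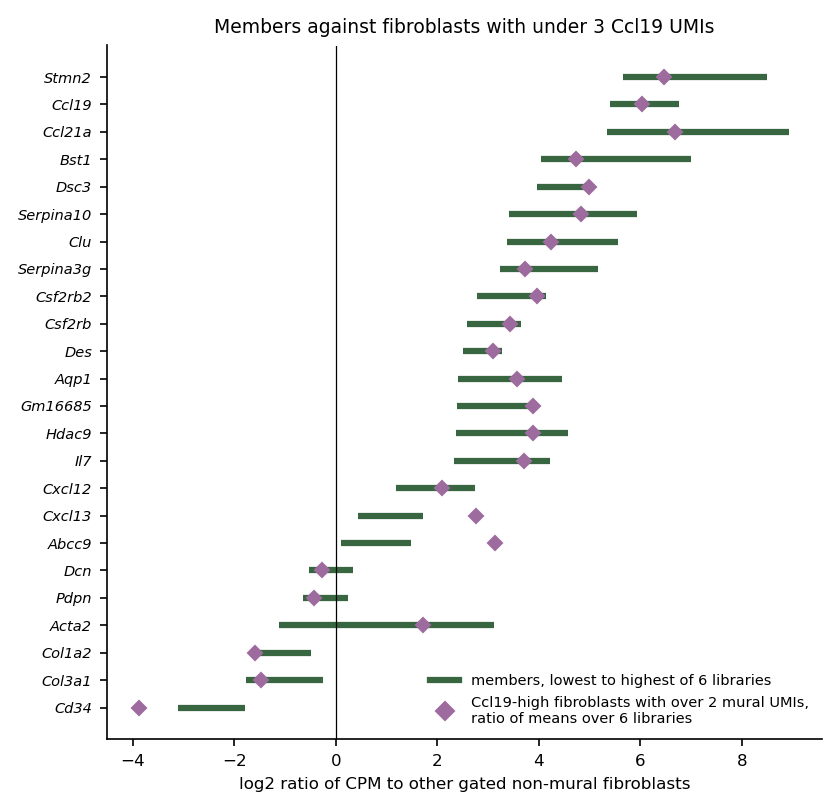
Log2 ratio of CPM (horizontal axis) between Ccl19-high fibroblasts and other non-mural fibroblasts for 24 genes; green bars run from the lowest to the highest of the 6 libraries, and diamonds are the ratio of means for the Ccl19-bearing fibroblasts with over 2 mural UMIs. Bars of Ccl21a, Bst1, Il7 and Des lie wholly above 0, those of Pdpn and Dcn cross 0, and the diamonds of Cxcl13 and Abcc9, a rule gene, lie to the right of their bars.

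Glycam1, a secreted mucin of high endothelial venules, had 0 and 85.7 CPM at vehicle, 591 and 99.5 CPM at day 3, and 21.3 and 1.72 CPM at day 7 in the Ccl19-high fibroblasts. It was highest in 1 library and at 0 in another. Of the 8 blood endothelial markers, 5, among them the rule genes Pecam1 and Cdh5, were at 0 in all 6 libraries. Where this Glycam1 RNA came from was not tested.

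As a share of gated fibroblasts, the Ccl19-high cells made up 6.07% (exact binomial 95% interval 4.82% to 7.51%) and 7.81% (6.47% to 9.32%) at vehicle, 9.01% (7.54% to 10.7%) and 4.58% (3.38% to 6.04%) at day 3, and 13.4% (11.4% to 15.6%) and 4.76% (3.81% to 5.86%) at day 7. The share was higher after oxazolone than at vehicle in the libraries labelled Cre-negative and lower in those labelled Cre-positive. These shares were not tested, and the intervals cover counting error only. A bead selection and a sort lie before these shares, and median UMIs per cell moved with time: 4749 and 6589.5 at vehicle, 9149.5 and 9877 at day 3, and 4880.5 and 6901 at day 7. Gated fibroblasts were also thinned to 1000 UMIs, with at least 1 Ccl19 UMI, at least 1 matrix UMI and no mural UMI asked for. The shares were then 12.3% and 17.7%, 26.6% and 17.9%, and 23.9% and 14.8%. This gate took 360 and 184 cells at day 3 against 122 and 47 under the rule, and among them were cells over the mural limit. These shares are therefore no check of depth alone. In them the library labelled Cre-positive did not lie lower at day 3 than at vehicle. At day 7 it did, with overlapping intervals. Without the limit on mural UMIs the shares were 29.4% and 52.9%, 75.8% and 74.8%, and 60.9% and 56.0%, higher after oxazolone in both. Under the Cre-positive label the intervals at vehicle (50.2% to 55.5%) and at day 7 (53.6% to 58.3%) overlapped.

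**Figure D3:**
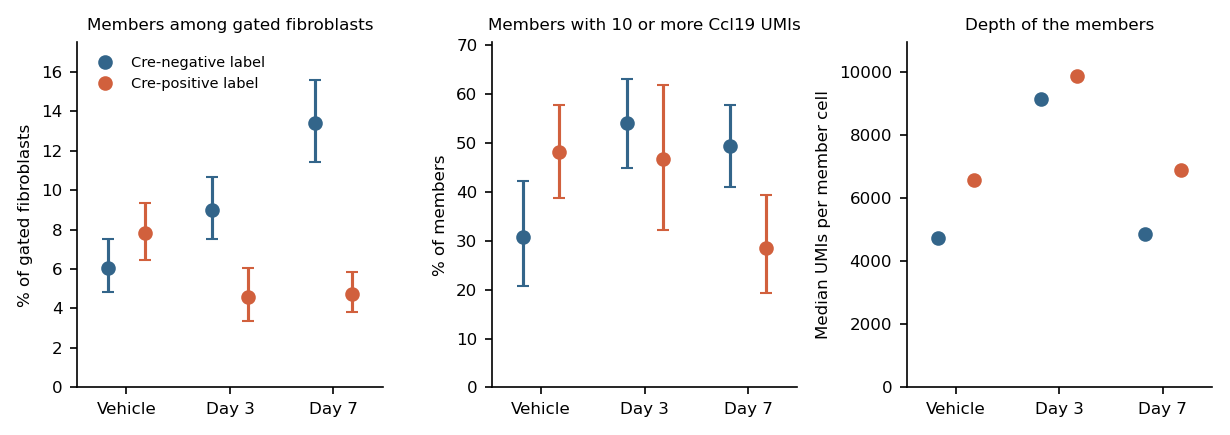
Left, Ccl19-high cells as a percentage of gated fibroblasts; middle, the percentage of them with 10 or more Ccl19 UMIs; right, their median UMIs per cell, each by treatment and genotype label (1 library per point). Bars are exact binomial 95% intervals for counting error. The share is highest at day 7 in the library labelled Cre-negative, at 13.4%, and the median depth is highest at day 3.

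To ask how these cells changed after oxazolone, UMIs were summed over the Ccl19-high fibroblasts of each library and 8487 genes were tested with edgeR's quasi-likelihood test in a model with genotype label and treatment. A gene was called at a Benjamini-Hochberg adjusted p under 0.05. At day 3, a smaller share of the cells' UMIs came from Igfbp3, Cyp2f2, Inmt, Cxcl12, Apoe, C3 and Ccl21a. A larger share came from Timp1, Serpinb1a, Fabp7, Lgals1 and the contractile genes Acta2 and Tagln. In all, 66 genes (0.778% of those tested) rose and 69 (0.813%) fell at day 3, while DESeq2 called 21 and 44. The 69 include the rule genes Dcn and Abcc9, which are not taken as findings. Of the 135 genes, 26 were called without each library in turn, 10 higher and 16 lower, with Dcn among the 16. Except where a library is named, the genes described below are among those 26. In a sum over cells, fewer cells of a type and less RNA per cell cannot be told apart. The test compares shares of UMIs, and median UMIs per cell were higher at day 3 than at vehicle. A change in share is therefore not a change of that size in UMIs per cell.

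Among the chemokines, Ccl21a had 7149 and 5543 CPM at vehicle, 3376 and 1879 CPM at day 3, and 7463 and 5571 CPM at day 7. Both day 3 libraries lay below the other 4. The change at day 3 was -1.34 ± 0.13 (log2, SE; adjusted p = 0.000473), a 2.53-fold fall. Cxcl12, the ligand of CXCR4 (chromosome 6, 117168535 to 117181367, GRCm38), had 7594 and 5239 CPM, 1830 and 2132 CPM, and 5741 and 5283 CPM. It fell 3.25-fold at day 3 (-1.70 ± 0.17, adjusted p = 0.000473), again with no overlap between day 3 and the other times.

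Ccl19 itself, which the rule used, had 2386 and 3312 CPM at vehicle, 6091 and 2098 CPM at day 3, and 4568 and 1726 CPM at day 7. The ranges of the 3 treatments overlapped. Il7 had 154 and 94.4 CPM, 48.2 and 79.1 CPM, and 174 and 107 CPM. Its 2 day 3 libraries were the lowest of the 6, and its value of -1.03 ± 0.36 did not pass (adjusted p = 0.188). Cxcl13 had 1339 and 1249 CPM, 2464 and 1379 CPM, and 814 and 993 CPM, with 0.52 ± 0.23 at day 3 (adjusted p = 0.289). Of 19 tested homeostatic chemokines and survival factors other than Ccl19, 2 fell at day 3, Ccl21a and Cxcl12, and none rose. Among all tested genes 0.813% fell and 0.778% rose. The median of the 19 was -0.70, against -0.01 over all genes tested.

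The steepest falls were in a cytochrome, a growth factor binding protein and a methyltransferase. Igfbp3, which binds insulin-like growth factors (chromosome 11, 7206086 to 7213923), had 1568 and 1119 CPM at vehicle, 96.4 and 61.1 CPM at day 3, and 1136 and 1248 CPM at day 7. It fell 17.1-fold (-4.10 ± 0.26, adjusted p = 2.6e-05), and the share of cells with an Igfbp3 UMI went from 80.8% and 79.5% to 32.8% and 25.5%, although the day 3 cells were the deepest. Thinned to 1000 UMIs per cell, these shares were 53.8% and 54.5% at vehicle and 9.02% and 6.38% at day 3. Lymphocytes, which should lack the gene, had an Igfbp3 UMI in 1.06% to 5.01% of cells.

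Cyp2f2, a cytochrome P450 enzyme (chromosome 7, 27119909 to 27133660), had 339 and 145 CPM at vehicle, 2.73 and 4.52 CPM at day 3, and 164 and 69 CPM at day 7. Its fitted change at day 3 was -6.35 ± 0.44 (adjusted p = 3.86e-05), and the day 3 values rest on 3 and 2 UMIs. Inmt, an indolethylamine N-methyltransferase known from medullary and perivascular reticular cells (chromosome 6, 55170626 to 55175043), had 846 and 893 CPM, 106 and 109 CPM, and 672 and 714 CPM. It fell 8.21-fold (-3.04 ± 0.23, adjusted p = 8.15e-05). The pairs lay close to each other within each time.

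Apoe, a lipid carrier, had 26357 and 24219 CPM at vehicle, 8379 and 10248 CPM at day 3, and 33789 and 23614 CPM at day 7, a 2.74-fold fall (-1.46 ± 0.14, adjusted p = 0.000473). C3, the central complement protein, had 6044 and 6514 CPM, 2712 and 2761 CPM, and 6939 and 7878 CPM, a 2.33-fold fall (-1.22 ± 0.11, adjusted p = 0.00036). Lepr, the leptin receptor, fell by 1.75 ± 0.25 (adjusted p = 0.00669), and Vtn, which encodes the adhesive plasma protein vitronectin, fell by 1.59 ± 0.24 (adjusted p = 0.00975). Apoe, Lepr and Vtn were chosen for naming after their values were seen. Of 10 tested complement genes 2 fell, C3 and C4b, and none rose, where 0.813% of all tested genes fell and 0.778% rose. The list median was -0.40, against -0.01 over all genes tested. The call of C4b was lost without the vehicle library labelled Cre-negative (-1.22, adjusted p = 0.082) and without the day 3 library labelled Cre-positive (-1.10, adjusted p = 0.105).

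Among the genes that rose, Timp1, an inhibitor of matrix metalloproteinases, had 28.3 and 23.6 CPM at vehicle, 220 and 185 CPM at day 3, and 41.3 and 44.8 CPM at day 7. It rose 7.73-fold (2.95 ± 0.29, adjusted p = 0.000473). The share of cells with a Timp1 UMI went from 8.97% and 9.82% to 64.8% and 53.2%, and thinned to 1000 UMIs from 1.28% and 3.57% to 17.2% and 21.3%. Lymphocytes had a Timp1 UMI in 0.168% to 1.63% of cells.

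Serpinb1a, an inhibitor of neutrophil serine proteases, had 30.8 and 33.5 CPM, 194 and 219 CPM, and 47.9 and 60.4 CPM, a 6.33-fold rise (2.66 ± 0.27, adjusted p = 0.000499). Fabp7, a fatty acid binding protein, had 20.6 and 8.70 CPM, 180 and 133 CPM, and 13.3 and 5.17 CPM, an 11.1-fold rise (3.48 ± 0.35, adjusted p = 0.000473). Lgals1, which encodes the lectin galectin-1 and was picked with its values in view, had 933 and 938 CPM, 3311 and 2933 CPM, and 1425 and 936 CPM, a 3.26-fold rise (1.70 ± 0.19, adjusted p = 0.00105). For each of these genes both day 3 libraries lay above the other 4. Aqp1, a water channel, rose by 2.30 ± 0.34 (adjusted p = 0.00844), from 38.6 and 47.2 CPM to 269 and 165 CPM.

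The contractile genes named here are shared with mural cells. Acta2, smooth muscle actin, had 254 and 155 CPM at vehicle, 1003 and 570 CPM at day 3, and 232 and 96.6 CPM at day 7, a 3.72-fold rise (1.90 ± 0.25, adjusted p = 0.00403). Tagln, the actin-binding protein transgelin, had 329 and 203 CPM, 1056 and 586 CPM, and 262 and 167 CPM (1.58 ± 0.23, adjusted p = 0.00798). Tpm2, a tropomyosin, also rose, by 1.44 ± 0.25 (adjusted p = 0.0200), a call lost without the vehicle library labelled Cre-negative (adjusted p = 0.0665), without that labelled Cre-positive (adjusted p = 0.0816) and without the day 3 library labelled Cre-positive (adjusted p = 0.0963). Of 24 tested genes of contractility and cytoskeleton these 3 rose and none fell, where 0.778% of all tested genes rose and 0.813% fell. The median of the 24 was 0.23, against -0.01 over all genes tested. The summed level of 11 pericyte and smooth muscle markers, Acta2 and Tagln included, was 1478 and 1249 CPM at vehicle, 2817 and 1818 CPM at day 3, and 1677 and 983 CPM at day 7. Without Acta2 and Tagln it was 895 and 891 CPM, 758 and 663 CPM, and 1183 and 719 CPM, a sum that holds Rgs5, Notch3 and Abcc9, which the rule limited to 2 UMIs per cell while the day 3 cells were the deepest. Of the 5 tested markers of this list that the rule did not use, Acta2 and Tagln rose, none fell, and 3 had fitted values above 0, with a median of 1.13. Of the 11 markers, 8 or 9 had UMIs in each library. The pericyte marker Higd1b was at 0 in all 6 libraries. Mcam was at 0 in both vehicle and both day 7 libraries but had UMIs in both day 3 libraries. Cspg4 had UMIs at vehicle and was at 0 at day 3 and day 7. The part of mural RNA in the rise was not tested.

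Slit2, a secreted guidance ligand of Robo receptors, had 10.3 and 2.48 CPM at vehicle, 87.3 and 170 CPM at day 3, and 6.65 and 6.90 CPM at day 7 (4.60 ± 0.53, adjusted p = 0.00136). It was near 0 in the Ccl19-bearing fibroblasts with over 2 mural UMIs, at 9.67 and 0.161 CPM at vehicle and 1.45 and 0.716 CPM at day 3, where the fitted value was -1.52. Has1, a hyaluronan synthase, had 5.14 and 52.2 CPM, 61.8 and 310 CPM, and 18.6 and 32.8 CPM (2.58 ± 0.39, adjusted p = 0.00844). Its call was lost without the vehicle library labelled Cre-positive (adjusted p = 0.0546) and without the day 3 library labelled Cre-positive (adjusted p = 0.075). Its values in the libraries labelled Cre-positive lay above their Cre-negative partners at every time.

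**Figure D4:**
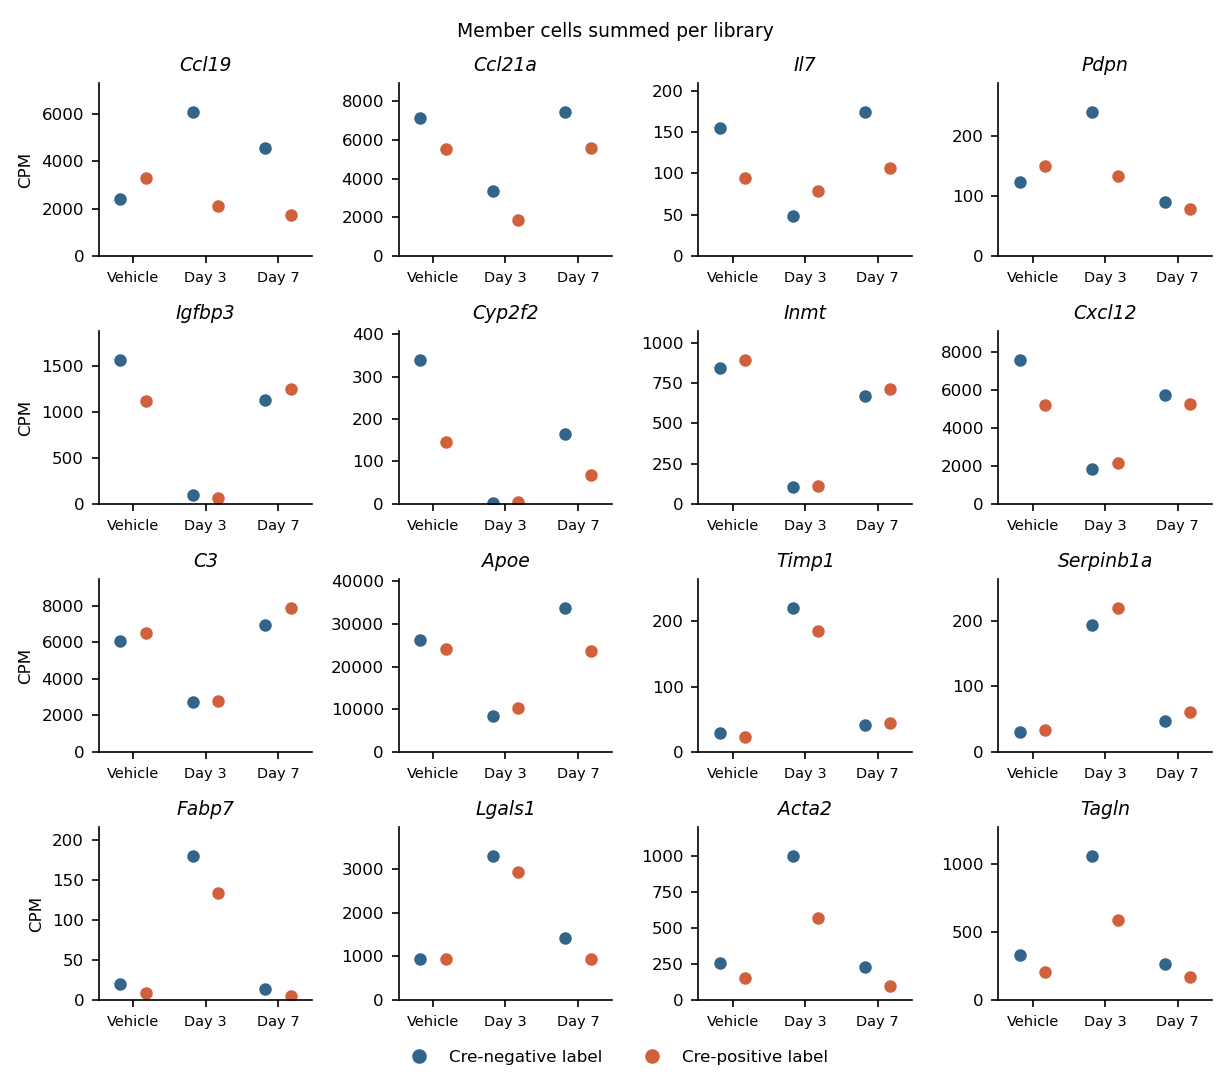
CPM (vertical axes, from 0) of 16 genes in Ccl19-high fibroblasts summed per library, by treatment and genotype label, 1 point per library. For Igfbp3, Cyp2f2, Inmt, Cxcl12, C3, Apoe and Ccl21a both day 3 points lie below the other 4, and for Timp1, Serpinb1a, Fabp7, Lgals1, Acta2 and Tagln both lie above them; Ccl19 and Pdpn show no such separation.

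Several of the day 3 differences were present in the cells with few Ccl19 UMIs as well as in those with many, while others were mostly in the second. Igfbp3 had 1598 and 1102 CPM at vehicle and 68.0 and 18.2 CPM at day 3 in cells with 3 to 9 Ccl19 UMIs, and 1511 and 1135 CPM against 117 and 103 CPM in cells with 10 or more. C3, Cxcl12, Apoe, Timp1 and Lgals1 likewise had both day 3 libraries outside the range of both vehicle libraries at either level of Ccl19. Fabp7 was found mostly in the cells with 10 or more, at 59.3 and 16.8 CPM at vehicle and 294 and 265 CPM at day 3, against 9 UMIs in 1 of 6 libraries below that level. Acta2 in the cells with 10 or more had 393 and 228 CPM at vehicle and 1496 and 984 CPM at day 3. In the cells with 3 to 9 it had 181 and 77.3 CPM against 307 and 150 CPM, where vehicle and day 3 overlapped. Inmt was higher below 10 Ccl19 UMIs at every time, 1087 and 1226 CPM against 393 and 583 CPM at vehicle. These levels have no test of the difference between them.

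**Figure D5:**
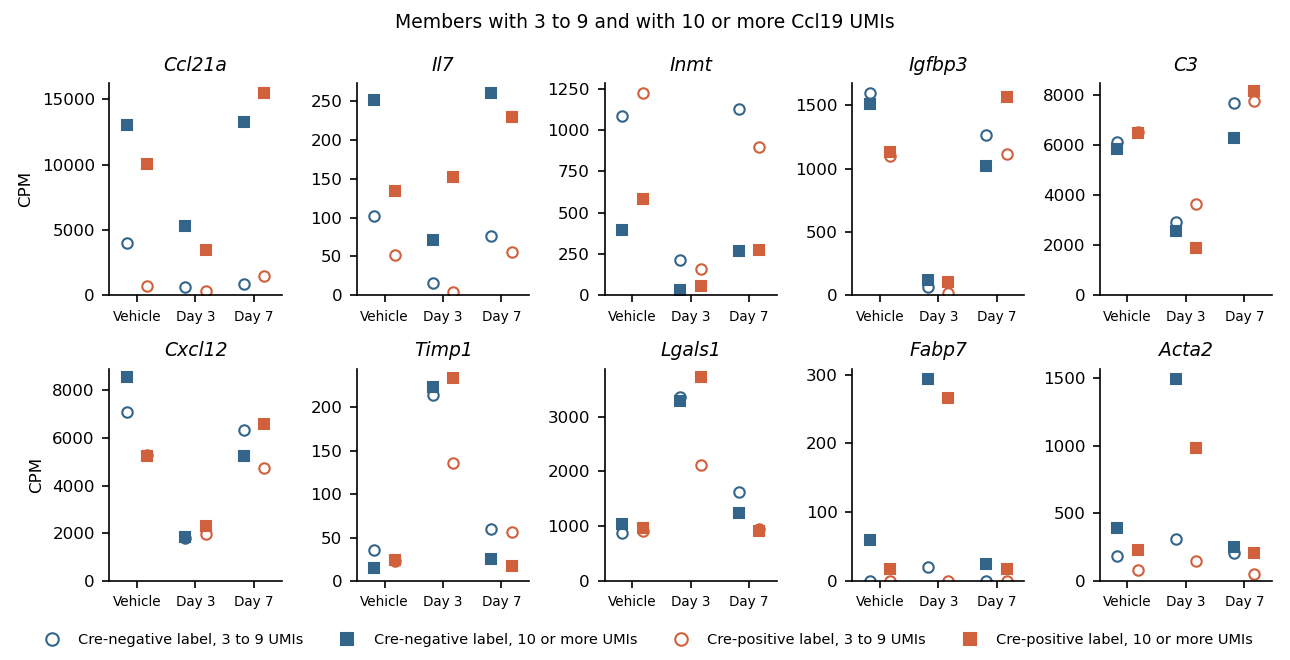
CPM (vertical axes, from 0) of 10 genes in Ccl19-high fibroblasts with 3 to 9 Ccl19 UMIs (open circles) and with 10 or more (filled squares), by treatment and genotype label, 1 library per point. Igfbp3, C3 and Cxcl12 are low at day 3 at either level, Fabp7 and Acta2 are high at day 3 mostly in the squares, and Inmt is higher in the circles at every time.

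The Ccl19-bearing fibroblasts with over 2 mural UMIs, which the rule left out, gave the same direction for the genes named next in a fit of their own on the same 6 libraries. That fit called 188 genes at day 3, and 43 of the 135 genes called in the main fit were among them. At day 3 Igfbp3 was at -2.96 (adjusted p = 0.0164), Cyp2f2 at -3.53 (adjusted p = 0.0366), Inmt at -2.41 (adjusted p = 0.0384), Timp1 at 2.29 (adjusted p = 0.0258), Serpinb1a at 1.67 (adjusted p = 0.0337), Fabp7 at 2.76 (adjusted p = 0.0337) and Lgals1 at 1.36 (adjusted p = 0.0366). Cxcl12 at -1.04 (adjusted p = 0.052), C3 at -1.14 (adjusted p = 0.064), Ccl21a at -0.86 (adjusted p = 0.111) and Acta2 at 1.69 (adjusted p = 0.0507) did not pass there. Cxcl13 did, at 1.55 (adjusted p = 0.0474), from 2575 and 2087 CPM at vehicle to 7552 and 5469 CPM at day 3. Whether the 2 kinds of cell differ in any of these changes was not tested. When all non-mural fibroblasts were taken whatever their Ccl19, 1 gene was called at day 3 in place of 135, and with at least 5 Ccl19 UMIs 14 were called.

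Of 12 tested inflammatory chemokines 1 fell at day 3 and none rose, where 0.813% of all tested genes fell and 0.778% rose. Cxcl10, an interferon-induced ligand of CXCR3, had 242 and 447 CPM at vehicle, 43.7 and 52.0 CPM at day 3, and 263 and 70.7 CPM at day 7 (-2.97 ± 0.54, adjusted p = 0.0233). That call was lost without the vehicle library labelled Cre-positive (-1.97, adjusted p = 0.104). None of 22 tested interferon-stimulated genes, 16 genes of lymphotoxin and NF-kB signalling, 17 of MHC class I presentation, 8 of T cell restraint or 20 of the unfolded protein response was called at day 3, with list medians of -0.54, -0.40, -0.09, -0.01 and 0.48. B2m, the light chain of MHC class I, had 1545 to 1705 CPM in all 6 libraries. Of 6 tested MHC class II genes 1 fell, H2-Ab1 (-1.53 ± 0.32, adjusted p = 0.0393), a call lost without any 1 of the 3 libraries labelled Cre-positive (highest adjusted p = 0.208).

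Of 37 tested genes of the matrix and conduit that the rule did not use, 2 rose, Timp1 and Serpinh1, and none fell, where 0.778% of all tested genes rose and 0.813% fell. In all, 30 had fitted values above 0, and the median was 0.63, against -0.01 over all genes tested. The rule genes of this list are given as a description. Dcn had 15825 and 13163 CPM at vehicle, 6189 and 7824 CPM at day 3, and 11729 and 14029 CPM at day 7. Col1a2 had 2951 and 1959 CPM at vehicle and 2987 and 4694 CPM at day 3. Col3a1 had 3164 and 2547 CPM at vehicle and 4038 and 7374 CPM at day 3. Serpinh1, a chaperone of collagen folding, had 671 and 729 CPM at vehicle, 1363 and 1449 CPM at day 3, and 720 and 762 CPM at day 7 (0.98 ± 0.19, adjusted p = 0.0285). Its call was lost without any 1 of the 4 vehicle and day 3 libraries (highest adjusted p = 0.160), though its value stayed between 0.96 and 1.01. Of 13 adhesion genes Cdh11, a cadherin of fibroblasts, rose (1.19 ± 0.25, adjusted p = 0.0393), a call lost without any 1 of the same 4 libraries (highest adjusted p = 0.177). None of 11 tested cell cycle genes was called at day 3, where 10 had fitted values above 0, with a median of 0.62. A Mki67 UMI was found in 0 of 78 and 0 of 112 cells at vehicle and in 11 of 122 (9.02%) and 1 of 47 (2.13%) at day 3, where 11.2% and 9.36% of lymphocytes had one. A Top2a UMI was found in 1 of 78 and 0 of 112 cells at vehicle and in 14 of 122 and 3 of 47 at day 3. Thinned to 1000 UMIs per cell, the day 3 shares were 3.28% and 2.13% for Mki67 and 2.46% and 2.13% for Top2a, against 0.0% in both vehicle libraries for either gene. Lymphocytes can divide and are no background for these genes, and the differences in these shares were not tested.

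None of the 20 tested immediate-early and dissociation genes, which are known to respond to tissue digestion, was called at day 3. Of these, 19 had fitted values below 0, and the median was -1.18, against -0.01 over all genes tested. Jun had 2303 and 2732 CPM at vehicle, 599 and 1361 CPM at day 3, and 2733 and 1386 CPM at day 7. The part of these genes in the other day 3 differences was not tested. The summed level of 6 medullary and perivascular reticular markers, most of it Cxcl12, was 8727 and 6495 CPM at vehicle and 2029 and 2481 CPM at day 3. Of the 4 tested, Inmt and Cxcl12 fell and Tmem119, a transmembrane protein, rose, where 0.813% of all tested genes fell and 0.778% rose. Tmem119 had 15.4 and 34.8 CPM at vehicle, 59.1 and 95 CPM at day 3, and 21.3 and 58.6 CPM at day 7 (1.64 ± 0.34, adjusted p = 0.0380), a call lost without either vehicle library and without the day 3 library labelled Cre-negative (highest adjusted p = 0.165). The summed level of 9 adventitial markers was 1290 and 1736 CPM at vehicle and 1832 and 2200 CPM at day 3, and none of the 8 tested was called, with a median of 0.77. Whether a change in which reticular cells met the rule plays a part was not tested.

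At day 7 no gene was called against vehicle (0.0% of those tested, lowest adjusted p = 0.290). Of the 8487 genes tested, 285 had an unadjusted edgeR p under 0.05, a proportion that is itself below 0.05. DESeq2 called 0, and the fit without 1 library gave 0 to 20 calls. Against vehicle, Cyp2f2 was at -1.08 ± 0.26, Lepr at -0.58 ± 0.24 and Aqp1 at 1.13 ± 0.35 on the log2 scale. None of these 3 passed (adjusted p = 1.000 for each).

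Day 7 was also set against day 3 directly, with the same day 3 libraries as above, so the values are not independent of those already given. Here 86 genes (1.01%) rose, the rule genes Dcn and Abcc9 among them, and 87 (1.03%) fell from day 3 to day 7. Ccl21a rose by 1.35 ± 0.13 (adjusted p = 0.00051), Cxcl12 by 1.47 ± 0.17 (adjusted p = 0.00126), Igfbp3 by 3.93 ± 0.26 (adjusted p = 3.94e-05), Inmt by 2.69 ± 0.23 (adjusted p = 0.000219) and C3 by 1.44 ± 0.11 (adjusted p = 0.000133). Timp1 fell by 2.24 ± 0.26 (adjusted p = 0.00132), Fabp7 fell by 4.03 ± 0.36 (adjusted p = 0.000219) and Acta2 fell by 2.31 ± 0.26 (adjusted p = 0.0012). All of these were called without each library in turn.

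Other genes were also called in this contrast. Hsd11b1, the enzyme that regenerates active glucocorticoid, had 30.8 and 44.7 CPM at vehicle, 50.9 and 38.4 CPM at day 3, and 2.66 and 5.17 CPM at day 7, the last from 2 and 3 UMIs. It fell by 3.55 ± 0.51 from day 3 to day 7 (adjusted p = 0.0064) and was at -3.32 ± 0.54 against vehicle, which did not pass (adjusted p = 0.290). Plat, tissue plasminogen activator, had 12.9 and 23.6 CPM, 74.6 and 72.4 CPM, and 7.98 and 10.3 CPM, and fell by 3.01 ± 0.39 (adjusted p = 0.00282). Plat was also called at day 3, a call lost without the day 3 library labelled Cre-negative and without either vehicle library (highest adjusted p = 0.146). Il33, an alarmin of reticular cells, had 419 and 299 CPM, 784 and 599 CPM, and 345 and 335 CPM, and fell by 1.01 ± 0.23 from day 3 (adjusted p = 0.0492), a call lost without any 1 of the 4 day 3 and day 7 libraries (highest adjusted p = 0.291).

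To ask whether the fibroblasts differed with the endothelial Cre label, the libraries labelled Cre-positive were compared with those labelled Cre-negative over the 3 treatments. No gene was called (0.0% of those tested, lowest adjusted p = 0.171), and DESeq2 called 0, while 597 genes had an unadjusted p under 0.05. Leaving out 1 library gave 2 to 29 calls, and leaving out both vehicle libraries 122, so the count of 0 depends on which libraries enter. Atg12, the floxed gene, had 33.4 and 24.8 CPM at vehicle, 21.8 and 38.4 CPM at day 3, and 26.6 and 34.5 CPM at day 7, from 13 to 24 UMIs per library, and the exact Poisson intervals of each pair overlapped. Counts at the 3-prime end do not check a deletion elsewhere in the gene. None of 22 tested autophagy genes was called in any of the 4 contrasts. Ccl21a had the lower value under the Cre-positive label at each time (-0.58 ± 0.11), and the difference did not pass (adjusted p = 0.187). Has1 had the higher value there at each time, with the same outcome (2.02 ± 0.33, adjusted p = 0.171). Cells with Xist UMIs were a smaller part of the cells under the Cre-positive label at each time. The part of this in the comparison by label was not tested.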

How the data were processed

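The authors deposited UMI counts per gene and barcode from a 10x Genomics 3-prime kit, unfiltered for cells. The submitters' processing notes name Cell Ranger 7.0.1 and mm10, and the file headers name a Cell Ranger of version 4. The deposited counts were used as they are, with entries of the same symbol summed. Cells were kept and gated by the rule in the text. Members and gene lists were chosen with earlier results of these data known. Genes to name were the rule genes and markers, the 10 largest called changes per direction at a mean of at least 20 CPM with the same direction in both labels, each list's called members and its 4 highest genes, the 15 largest lowest-library ratios against other fibroblasts at 50 CPM, and Atg12.

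UMIs of member cells were summed per library and entered edgeR 4.0.16 (R 4.3.3) with a quasi-likelihood F test, TMM factors and filterByExpr by treatment (model of genotype label plus treatment, 2 residual degrees of freedom, interaction counted as error). The SE given with a log2 change is its size divided by the square root of its F value. CPM are UMIs per 1000000 UMIs of the summed cells. Shares have exact (Clopper-Pearson) 95% intervals and UMI sums exact Poisson intervals, covering counting error only. Doublets were removed only as an alternative: Scrublet in scanpy 1.11.5, the highest scores at 0.8% per 1000 cells, which took 286 to 608 cells per library. Alternatives covered the tool, scaling, filters, gates, depth, free RNA and each library left out. Coordinates are from GENCODE for GRCm38. The CD31 libraries entered no fit.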

Additional observations from a re-analysis of the deposited data

Results flagged for a closer look

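The share of Ccl19-high cells among gated fibroblasts differed from vehicle in opposite directions under the 2 genotype labels. From vehicle to day 3 it was 2.95 percentage points higher in the libraries labelled Cre-negative and fell by 3.23 points in those labelled Cre-positive, and from vehicle to day 7 the differences were 7.34 and -3.05 points. Ccl19 CPM within the cells moved the same way: 3706 CPM higher at day 3 and 2183 CPM higher at day 7 under the Cre-negative label, and 1214 CPM lower (-1214) and 1586 CPM lower (-1586) under the Cre-positive label. Each value is a difference of single libraries, so these differences between labels were not tested, and the rule itself used Ccl19. Beside them, median UMIs per cell and the share of cells with 10 or more Ccl19 UMIs differed between the libraries. The mix of cells with Xist and with Y-linked UMIs differed too. Thinned shares under the Cre-positive label were 17.7% at vehicle, 17.9% at day 3 and 14.8% at day 7, by a gate that also took cells over the mural limit. Under the Cre-negative label they were 12.3%, 26.6% and 23.9%. The opposite directions were thus present at day 7 and not at day 3 after thinning. The thinned intervals at vehicle and day 7 overlapped under the Cre-positive label. Without the limit on mural UMIs the opposite directions were gone: the share was 29.4% at vehicle, 75.8% at day 3 and 60.9% at day 7 under the Cre-negative label, and 52.9%, 74.8% and 56.0% under the Cre-positive label. The intervals of that label at vehicle and day 7 overlapped.

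In the 6 libraries labelled CD31, which no comparison used, 9 cells met the same rule, among 94 gated fibroblasts.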

How the results depend on the processing

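The main model held the genotype label, so treatments were compared within each label, and without the label 128 genes were called at day 3 against vehicle. No other pairing was possible because each group is 1 library and the labels give no replicate number that pairs libraries of different groups. The counts of called genes moved as follows. At day 3 against vehicle, where 135 were called, DESeq2 gave 65, no filter on low counts 497, at least 2 Ccl19 UMIs 76, at least 5 Ccl19 UMIs 14, all non-mural fibroblasts 1 and no limit on mural UMIs 297; without 1 library the count was 84 to 280, lowest without the vehicle library labelled Cre-negative and highest without the day 7 library labelled Cre-negative. At day 7 against day 3, where 173 were called, the same settings gave 67, 544, 128, 18, 6 and 791, only cells with over 2 mural UMIs gave 535, and leaving out 1 library gave 71 to 318. At day 7 against vehicle no filter gave 23 and leaving out 1 library 0 to 20. By genotype label no filter gave 68, all non-mural fibroblasts 1, leaving out 1 library 2 to 29, both vehicle libraries 122 and both day 3 libraries 19. The 2 settings on mural UMIs and the pairs of libraries left out were chosen after seeing the data, and the causes of these moves were not tested.

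The shares of Ccl19-high cells at vehicle, day 3 and day 7 became 8.16% and 10.1%, 11.1% and 5.55%, and 16.2% and 6.40% with at least 2 Ccl19 UMIs, and 3.65% and 5.58%, 6.72% and 3.41%, and 10.3% and 2.55% with at least 5. They were 12.3% and 17.7%, 26.6% and 17.9%, and 23.9% and 14.8% after thinning, where the gate also took cells over the mural limit. Without the limit on mural UMIs they were 29.4% and 52.9%, 75.8% and 74.8%, and 60.9% and 56.0%.

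Named genes turned direction under gates that take other cells. In the main fit those given next were called higher at day 3, or lower at day 7 than at day 3. Fabp4, from the list of epithelium and fat, was at 7.63 at day 3 there. Its call was lost without either vehicle library and without the day 3 library labelled Cre-negative, with values of 6.36 to 7.92. In cells with over 2 mural UMIs, day 3 values became -1.52 for Slit2, -1.56 for Smpd3, -0.27 for Has1 and -2.25 for Fabp4, and day 7 against day 3 became 0.89 for Slit2, 1.15 for Smpd3, 0.26 for Has1, 0.0470 for Lama2 and 0.49 for Ly6c1. In all non-mural fibroblasts, day 3 became -0.96 for Smpd3, -0.0823 for Has1, -0.0697 for Plat and -0.37 for Fabp4, and Smpd3 became 0.30 for day 7 against day 3. Without the limit, Smpd3 was -0.12 at day 3 and Ly6c1 0.0508 for day 7 against day 3. Of 839 alternative values of 41 called genes at day 3, 669 kept direction and call, 161 kept direction only and 9 turned; for day 7 against day 3 these were 779, 250 and 7 of 1036 for 50 genes. With 47 to 146 cells per library, depth limits genes of few UMIs such as Cyp2f2 and Hsd11b1.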

Other observations

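Among other genes called at day 3 in the Ccl19-high fibroblasts, Ptprt, a receptor-type tyrosine phosphatase, had 121 and 68.3 CPM at vehicle, 11.8 and 11.3 CPM at day 3, and 99.8 and 107 CPM at day 7, and fell 8.16-fold at day 3 (-3.03 ± 0.38, edgeR adjusted p = 0.00255). Igfbp2, which like Igfbp3 binds insulin-like growth factors, went the opposite way to Igfbp3: it had 15.4 and 12.4 CPM at vehicle, 182 and 61.1 CPM at day 3, and 30.6 and 22.4 CPM at day 7 (2.93 ± 0.39, edgeR adjusted p = 0.00403). Both calls held without each library in turn. Saa3, an acute-phase protein, had 12.9 and 2.48 CPM, 35.5 and 219 CPM, and 1.33 and 0 CPM (4.33 ± 0.77, edgeR adjusted p = 0.0213), a call lost without the vehicle or the day 3 library labelled Cre-positive (values of 1.47 and 1.39, adjusted p = 0.363 and 0.587).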
